A study of Bos taurus with 21 samples.

Results

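The cytosolic ribosomal protein genes encode the proteins that, with ribosomal RNA, make up the small (RPS) and large (RPL) subunits of the ribosome outside the mitochondria. They were measured in fetal muscle of Blonde Aquitaine (BA) and Charolais (CH) cattle at 110, 180, 210 and 260 days post conception (dpc). A gene was a member when its symbol was RPL or RPS and a number, RPLP0, RPLP1, RPLP2 or RPSA. Look-alike paralogues such as RPL3L were left out. The cattle annotation holds 76 such symbols, and 74 of them had a probe, of 12538 named genes on the array. RPL22 and RPS14 had none. The 74 members were 30 genes of the small and 44 genes of the large subunit, and each was measured by the brightest of its probes.

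RNA of 21 foetuses was hybridised to single-colour arrays, 1 array for each foetus. The BA groups held 3, 2, 3 and 2 arrays at 110, 180, 210 and 260 dpc, and the CH groups 2, 3, 3 and 3. Of the foetuses 13 were female and 8 male. The BA groups at 180 and 260 dpc and the CH group at 110 dpc held females only, and the other groups held both sexes. The foetuses were purebred, from artificial insemination, and no group had a treatment. BA cattle are heavily muscled and can carry a myostatin mutation, for which these foetuses were not genotyped, so the groups stand for breeds and not for genotypes. The labels name the tissue as Longissimus thoracis muscle, whereas the study's methods name the Semitendinosus. All 6 skeletal muscle markers with a tested probe were well above background on every array.

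A ribosome holds, in general, 1 copy of each core ribosomal protein, and the P stalk proteins RPLP1 and RPLP2, which bind elongation factors, are the exception. Vertebrate ribosomal protein mRNAs share a pyrimidine tract at their start through which growth signals tune their translation together. Skeletal muscle is known for a ribosome of its own: RPL3, which lies near the site where peptide bonds form, has a paralogue, RPL3L, found in heart and skeletal muscle, and the elongation factor EEF1A1 is replaced there by EEF1A2. The comparisons ask how the members changed with age and whether they differed between the breeds.

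The members were among the brightest probes of the array. Their mean normalized log2 intensities, which are the log2 of the processed intensity less the 75th percentile of the array plus a constant of 2.69, ran from 6.51 for RPSA, the laminin receptor protein of the small subunit, to 10.91 for RPS28. The dimmest of them was brighter than 93.0% of the 20132 probes tested, and all were well above background on all 21 arrays. Because they are so bright, 71 of the 74 member probes were read on every array from a second, low-gain scan that the scanner software scaled up. RPL3 was read this way on 16 arrays, RPL28 on 6 and RPSA on 0. On each array 1.56% to 2.62% of all probes were read this way.

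RPL3 fell with age in both breeds, and it was the member that changed most. In BA its normalized log2 intensity was 9.14, 9.31 and 8.99 at 110 dpc. It was 8.49 and 8.75 at 180 dpc, then 8.04, 8.31 and 8.36 at 210 dpc, and 7.29 and 7.14 at 260 dpc. In CH it was 9.24 and 9.08, then 9.06, 8.73 and 8.80, then 7.89, 8.29 and 8.41, and lastly 6.99, 7.64 and 7.53 at the same stages. Every array at 260 dpc lay below every array at 210 dpc, and every array at 210 dpc below every array at 180 dpc, whereas the stages 110 and 180 dpc overlapped.

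Between 110 and 260 dpc RPL3 fell by 1.85 on the log2 scale (SE 0.13, limma adjusted p = 2.75e-09), a 3.61-fold difference. The log2 difference was -1.93 in BA and -1.77 in CH (SE 0.19 in each), and the difference between the breeds in this change did not pass (log2 difference -0.15, adjusted p = 0.943). The steps were -0.41 from 110 to 180 dpc (adjusted p = 0.0342), -0.52 from 180 to 210 dpc (adjusted p = 0.0156) and -0.91 from 210 to 260 dpc (adjusted p = 2.53e-05). All 6 probes of RPL3 passed, with log2 differences from -2.14 to -1.69 between 260 and 110 dpc. The fall from 110 to 260 dpc passed under all 35 alternatives of processing or samples, between -2.39 and -1.65, and that of the last step passed under all 35 as well. The first step passed under 24 of them and the second under 32. The arrays came from 6 slides, and with slides as a block the difference between 260 and 110 dpc was -1.65 (SE 0.21). A single slide held both stages, with 1 BA array at 110 dpc and 1 CH array at 260 dpc, and on it RPL3 differed by -1.50.

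RPL3L, the muscle paralogue of RPL3, went the other way. At 110 dpc its normalized log2 intensity was 1.13, 1.70 and 1.48 in BA and 1.23 and 1.85 in CH. At 180 dpc it was 4.33 and 4.53 in BA and 4.92, 5.27 and 4.47 in CH. At 210 dpc it was 6.81, 6.05 and 7.09 in BA and 6.43, 6.92 and 6.25 in CH. At 260 dpc it was 8.15 and 8.31 in BA and 8.01, 8.01 and 7.88 in CH. No array of a stage overlapped with an array of the stage before.

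From 110 to 260 dpc RPL3L rose by 6.61 on the log2 scale (SE 0.20), a 97.7-fold difference, and it rose under all 35 alternatives, between 6.08 and 6.84. Its second probe gave 6.55. RPL3L was well above background on all 21 arrays, including those at 110 dpc. Intensities of different probes have no common scale, so the share of either mRNA in the sum of both is not known.

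**Figure D1:**
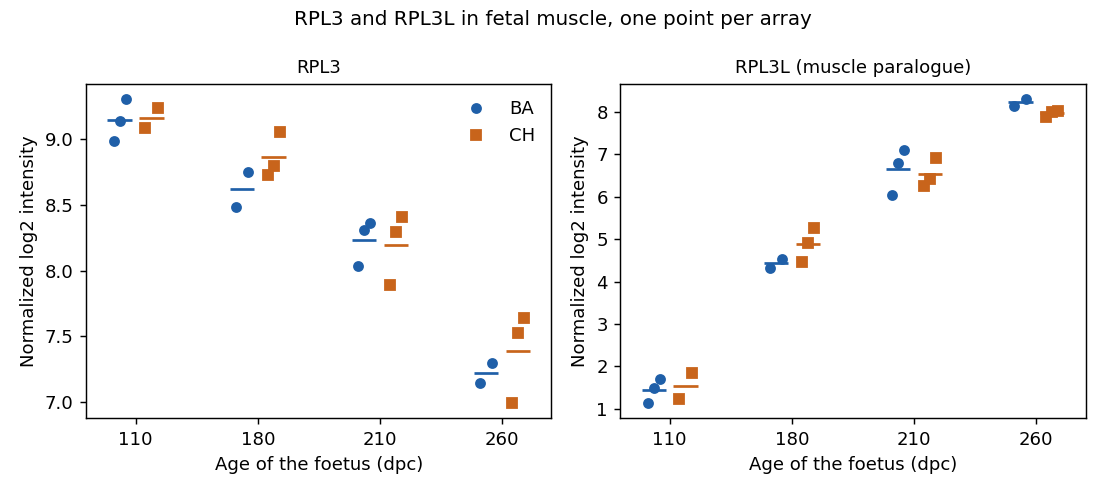
Normalized log2 intensity of RPL3 (left) and RPL3L (right) against the age of the foetus in dpc, with circles for BA arrays, squares for CH arrays and short lines for group means. RPL3 went down from 8.99 to 9.31 at 110 dpc to 6.99 to 7.64 at 260 dpc in both breeds while RPL3L went up from 1.13 to 1.85 to 7.88 to 8.31; the axes of the panels differ.

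The markers of skeletal muscle rose over the same time. Of 8 such genes, 6 had a tested probe and 6 of 6 rose from 110 to 260 dpc. Their summed level was 10.83 to 11.29 in log2 units at 110 dpc and 13.05 to 13.42 at 260 dpc. Beside the counts of markers given here, 33.3% of all probes tested rose and 30.8% fell. ACTA1, the actin of the skeletal muscle thin filament, was at a mean of 9.29 at 110 dpc and of 11.92 at 260 dpc. In bulk tissue, fewer cells of a type and less RNA per cell cannot be told apart. Of 6 fibroblast markers 5 fell, with a summed level of 10.86 to 11.84 at 110 dpc and 10.19 to 10.91 at 260 dpc. Both tested markers of proliferation fell and all 3 tested red cell markers fell, the latter from a summed 9.69 to 10.48 at 110 dpc to 7.59 to 8.86 at 260 dpc. Of the tested markers, 2 of 5 endothelial genes rose and 1 fell, 1 of 3 leukocyte genes rose and 1 fell, 2 of 3 Schwann cell genes rose, and 1 of 2 adipocyte genes rose. Their part in the changes of RPL3 and RPL3L was not tested.

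Most other members changed little, and the direction of the group as a whole depended on how the arrays were scaled. With arrays scaled on their 75th percentile, 25 of 74 members rose from 110 to 260 dpc, or 33.8%, beside 33.3% of all probes tested, and 5 fell, or 6.76%, beside 30.8% of all probes. The median log2 difference of the members was 0.20 on this scale, beside 0.04 for all probes, but it was -0.30 after quantile normalization, -0.19 in the authors' unscaled values and -0.34 when arrays were scaled on the other probes read from the low-gain scan on every array. Under quantile normalization 0 members rose and 58 fell, beside 30.2% and 34.2% of all probes. In the authors' values 0 rose and 10 fell, beside 11.5% and 38.6%. On the scale of the other low-gain probes 0 rose and 57 fell, beside 14% and 58.5%. On the 75th percentile scale those 324 other low-gain probes had a median log2 difference of 0.40. On the slide that held both stages, with 1 BA array at 110 dpc and 1 CH array at 260 dpc, the members' median differed by 0.56. This is a single pair of arrays in which the breed differs as well. With slides as a block 19 members rose and 1 fell, beside 5454 and 4426 of 20132 probes.

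**Figure D2:**
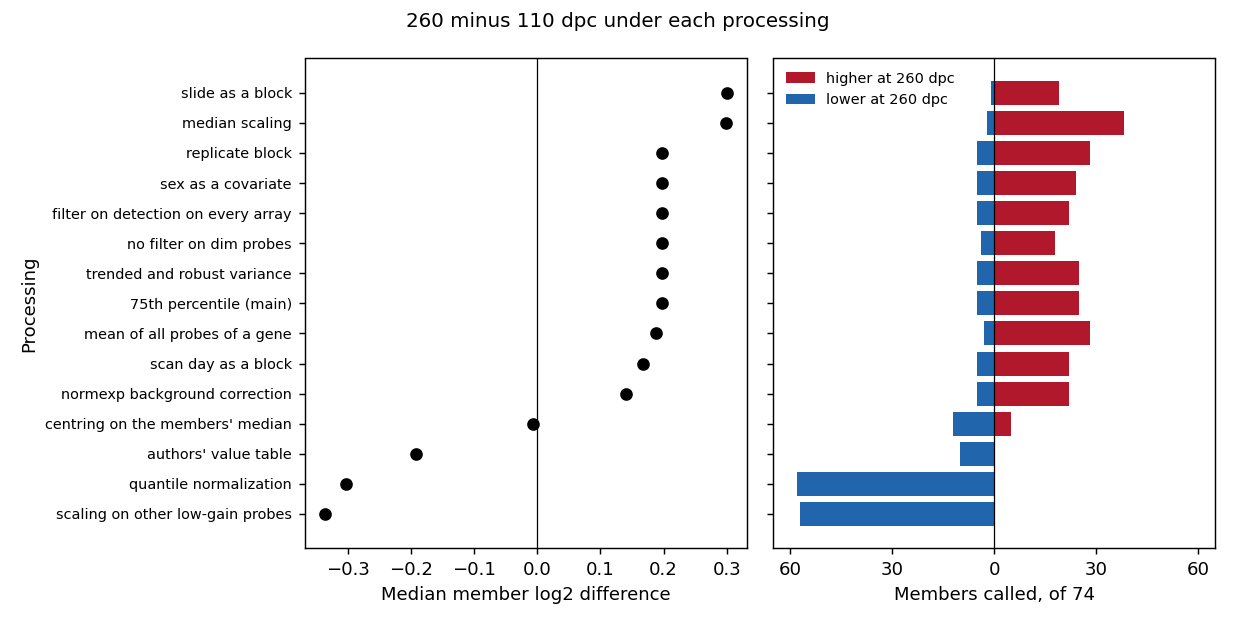
Left, the median log2 difference of the 74 members between 260 and 110 dpc (horizontal axis) under each processing (vertical axis); right, the number of members called higher (red, to the right) or lower (blue, to the left) at an adjusted p under 0.05. The median was 0.20 on the main scale and -0.34 on the scale of other low-gain probes, so the sign of the group's change was not fixed by these data.

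The share of the summed array intensity that came from the 74 member probes does not depend on a scaling factor. It was 9.43%, 9.73%, 9.78%, 10.07% and 10.50% on the 5 arrays at 110 dpc. It was 8.37% to 9.53% at 180 dpc and 8.16% to 9.05% at 210 dpc. At 260 dpc it was 7.84%, 8.16%, 8.21%, 9.06% and 9.07%. All arrays at 110 dpc lay above all arrays at 260 dpc. The share is relative to all other probes, of which ACTA1 was one that rose, and their part in it was not tested. The median of the members per array, on the 75th percentile scale, was 9.86 to 10.07 at 110 dpc and 9.92 to 10.42 at 260 dpc, so that these arrays overlapped.

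**Figure D3:**
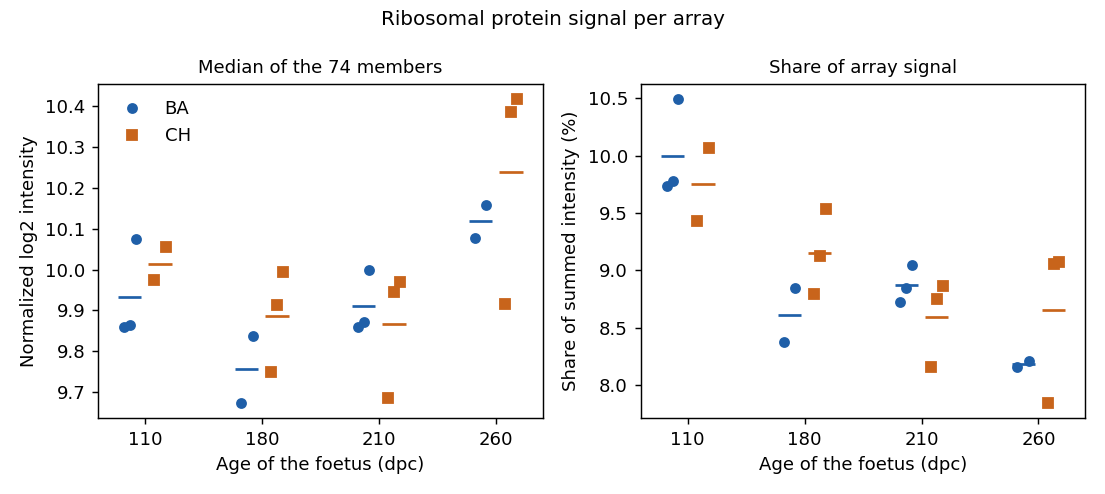
Median normalized log2 intensity of the 74 members (left, 75th percentile scale) and their share of the summed intensity of the array in percent (right) against age in dpc, with one point per array, circles for BA, squares for CH and short lines for group means. The share was 9.43% to 10.50% at 110 dpc and 7.84% to 9.07% at 260 dpc, whereas the medians overlapped. The members' median log2 difference between these stages changed sign under other scalings.

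The differences among the members do not depend on such a factor. Unlike the other members, though, RPL3, RPL28 and RPSA were not read from the low-gain scan on every array. The part of this in their differences from the rest was not tested. To compare each member with the rest, every array was also centred on the median of its 74 member probes, a choice made after the values were seen. On this scale 12 members fell from 110 to 260 dpc and 5 rose, beside 37.5% and 21.6% of all probes. The members that fell were RPL3, RPL8, RPS26, RPSA, RPS3, RPS15A, RPL13, RPLP2, RPS21, RPL37, RPL36 and RPS16. Those that rose were RPL15, RPLP1, RPL35, RPL10 and RPL37A. RPL3 stood apart at -2.06 (SE 0.10), followed by RPL8 at -0.64 (SE 0.09), while the largest rise was that of RPL15 at 0.54 (SE 0.14).

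**Figure D4:**
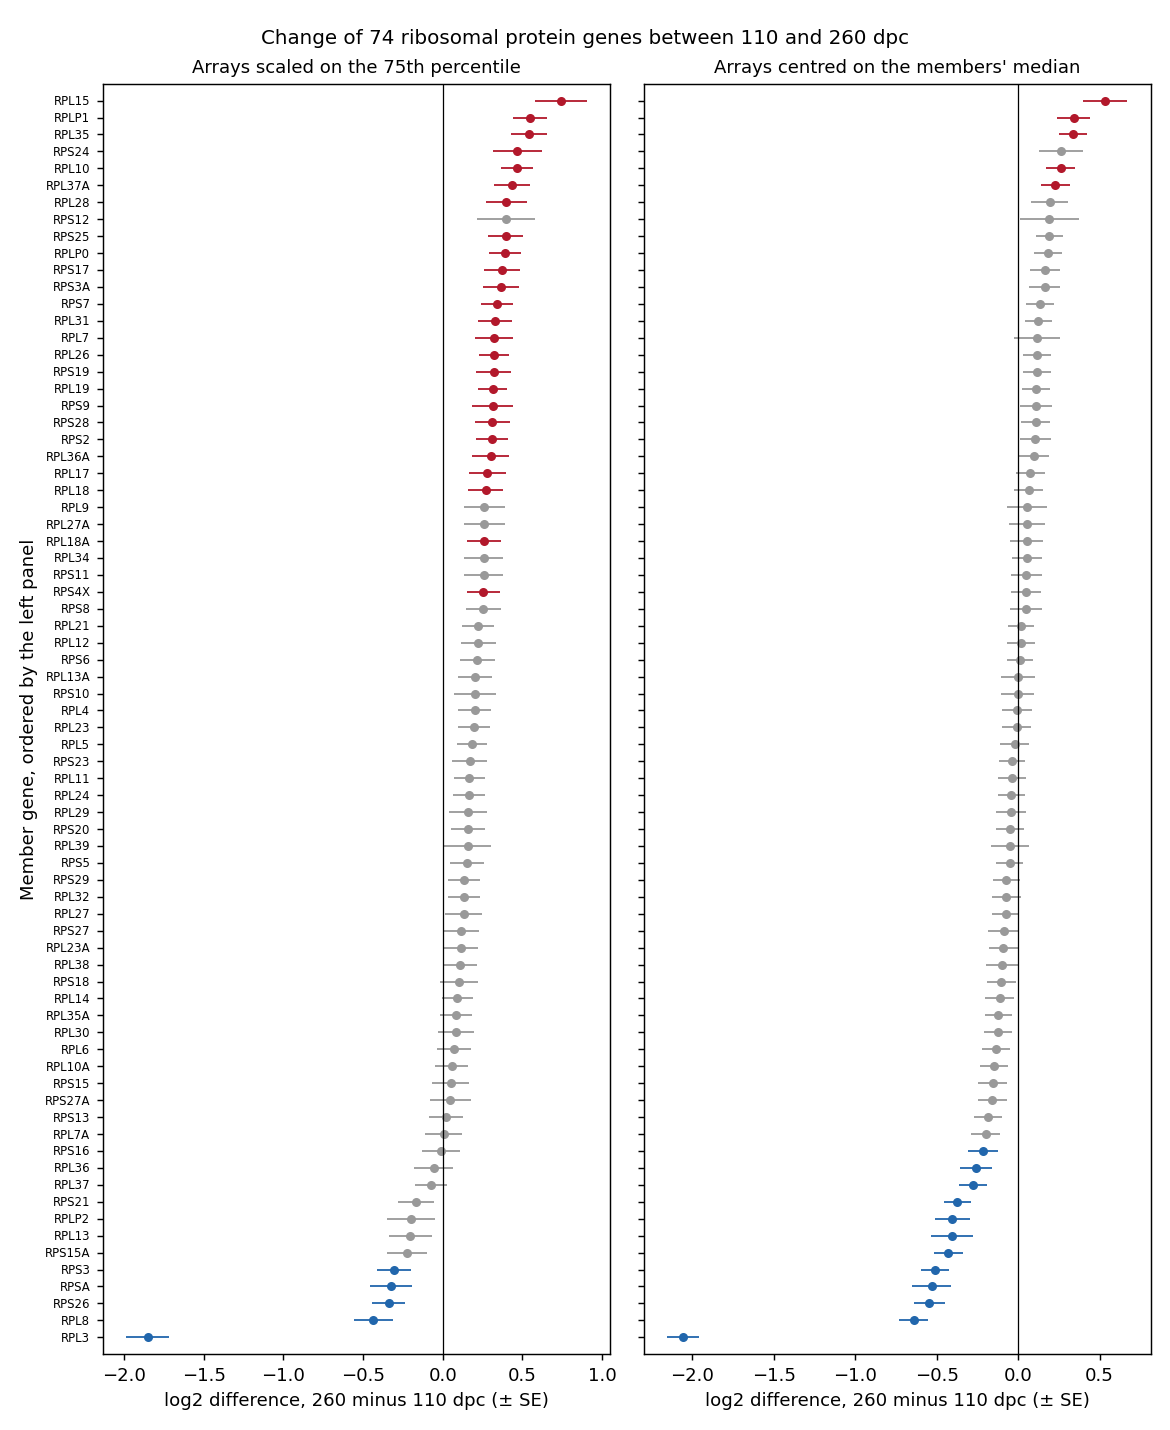
Log2 difference between 260 and 110 dpc (horizontal axis, with SE) of each of the 74 members (vertical axis), with arrays scaled on the 75th percentile (left) or centred on the members' median (right); red marks members higher and blue members lower at an adjusted p under 0.05. RPL3 stood at -1.85 and -2.06, and the 25 members in red on the left were not called higher under quantile normalization, where 58 members fell.

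Of the members of the large subunit, RPL8, which binds near the peptidyl transferase centre, was at 10.18, 10.39, 10.28, 10.43 and 10.24 at 110 dpc and at 9.79, 9.88, 9.59, 10.14 and 10.02 at 260 dpc. The groups did not overlap. It fell by 0.44 (SE 0.12, adjusted p = 0.00477), a 1.35-fold difference, and all 3 of its probes fell, by 0.37 to 0.65. With slides as a block the RPL8 difference was -0.25 and did not pass, and it passed in the other 34 alternatives. RPL15 was at 9.46, 9.12, 9.44, 9.73 and 9.29 at 110 dpc and at 9.78, 10.37, 9.91, 10.46 and 10.38 at 260 dpc, again without overlap. It rose by 0.74 (SE 0.16, adjusted p = 0.000701) on the main scale. RPL15 passed in 32 of 35 alternatives. It did not pass under quantile normalization (0.24), in the authors' values (0.35) or on the scale of the other low-gain probes (0.21). Its 8 probes gave 0.05 to 0.76, of which 4 passed.

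RPL10, which helps to join the subunits, was at 10.06 to 10.35 at 110 dpc and 10.53 to 10.85 at 260 dpc and rose by 0.47 (adjusted p = 0.000523), with 5 of 5 probes rising by 0.41 to 0.80. RPL35 was at 8.31 to 8.56 and then 8.75 to 9.26, and its 0.54 (adjusted p = 0.000418) was not shared by its other probes, the lowest of which gave -0.23. RPL37A rose by 0.43 (adjusted p = 0.0025), and a second probe passed at 0.42, while its other probe gave -0.59 and did not pass (adjusted p = 0.0625). These 3 rises belong to the 75th percentile scale. Under quantile normalization RPL10 was at -0.04, RPL35 at -0.04 and RPL37A at -0.05, and on the scale of the other low-gain probes they were at -0.07, 0.0061 and -0.10. RPL5 and RPL11, which bind 5S ribosomal RNA, did not pass (0.18, adjusted p = 0.0959, and 0.17, adjusted p = 0.152), nor did RPL13 at -0.20 (adjusted p = 0.202) or RPL38 at 0.11 (adjusted p = 0.392).

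The proteins of the P stalk did not share 1 pattern. RPLP1 was at 10.52, 10.78, 10.69, 10.55 and 10.53 at 110 dpc and at 11.24, 11.10, 10.98, 11.33 and 11.06 at 260 dpc. It rose by 0.55 (SE 0.11, adjusted p = 0.000246) on the 75th percentile scale, and its 3 probes gave 0.55 to 1.46. RPLP1 did not pass under quantile normalization (0.0032), on the scale of the other low-gain probes (0.011) or in the authors' values (0.16). RPLP0, the base of the stalk, rose by 0.39 (SE 0.10, adjusted p = 0.00276) on the 75th percentile scale, with 4 of 4 probes, but was at -0.13 under quantile normalization. RPLP2, the partner of RPLP1, was at 9.82 to 10.32 at 110 dpc and at 9.67 to 10.14 at 260 dpc (-0.20, adjusted p = 0.264). Relative to the members' median RPLP1 rose by 0.34 (adjusted p = 0.00791) and RPLP2 fell by 0.40 (adjusted p = 0.0034).

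Of the members of the small subunit, RPS26, RPSA and RPS3 fell. RPS26, which sits at the exit of the mRNA channel, was at 9.67 to 9.82 at 110 dpc and at 9.11 to 9.66 at 260 dpc and fell by 0.34 (adjusted p = 0.00786). Its other 5 probes did not pass, and the mean of all its probes gave 0.08. RPS3, at the entry of that channel, was at 10.84 to 11.11 and then at 10.40 to 10.93 and fell by 0.30 (adjusted p = 0.0187), while its other probes reached 0.13. RPSA has a single probe and fell by 0.32 (adjusted p = 0.0406), from 6.34 to 7.15 at 110 dpc to 6.23 to 6.86 at 260 dpc, so that the stages overlapped. RPSA lost its call in 9 of 35 alternatives, which included slides as a block, median scaling and the fits without BA 110 dpc replicate 1 or 2, BA 260 dpc replicate 1 or 2, CH 110 dpc replicate 1 or CH 260 dpc replicate 1, and was at -0.23 without CH 110 dpc replicate 1. RPS3 lost its call in 5, which included slides as a block, median scaling and the fits without BA 260 dpc replicate 1 or CH 110 dpc replicate 2. RPS26 lost its call in 3, slides as a block, median scaling and the mean of all probes.

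Among the other small subunit genes, RPS24 rose by 0.47 (adjusted p = 0.0134) on the 75th percentile scale, with both probes, and was at -0.09 under quantile normalization. Without CH 110 dpc replicate 2 RPS24 was at 0.27 and did not pass (adjusted p = 0.129). RPS4X, the X-linked form of the RPS4 protein, rose by 0.25 (adjusted p = 0.0391) but was at -0.20 under quantile normalization. The rise passed in 23 of 35 alternatives. The 5 probes of RPS4X gave -0.13 to 0.25, of which 1 passed, and their mean gave 0.03. RPS6, the phosphorylated target of S6 kinase, did not pass (0.22, adjusted p = 0.0933). RPS27A, which is made as a fusion with ubiquitin, did not pass (0.05, adjusted p = 0.766), nor did RPS10 (0.20, adjusted p = 0.181) or RPS15A (-0.22, adjusted p = 0.128).

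Of the 30 members called between 110 and 260 dpc, 14 had arrays of the 2 stages that did not overlap, and these were 18.9% of all 74 members, beside 47.2% of all probes tested. All 30 had the same sign in both breeds. The calls were made on the average of the breeds, which favours such members, so this is no separate support. Leaving out BA 260 dpc replicate 2 or CH 110 dpc replicate 2 left 15 members that rose, and leaving out CH 260 dpc replicate 1 gave 45. Without BA 260 dpc replicate 1, 3 fell. Of the 30 calls, RPL3 alone held in all 35 alternatives. Of the 65 members with several tested probes, 47 had the same sign with every probe. Of the 27 of these that were called, RPL7 alone had another probe that passed in the opposite direction, at -1.14 beside its own 0.32. RPL13, which was not called here and fell relative to the members' median with its brightest probe, had other probes that rose by 0.39, 0.41 and 0.85. RPL14, RPS23 and RPS27, which were not called either, also had a probe that passed in the opposite direction. Their brightest probes were at 0.09, 0.17 and 0.12 and their lowest at -0.27, -0.49 and -0.28. All of these genes were picked out after their values were seen.

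On the 75th percentile scale most calls between neighbouring stages came from the last step, whereas on the scale of the other low-gain probes most came from the first. From 110 to 180 dpc 3 members fell, RPL3, RPL8 and RPSA, and 0 rose, beside 11.4% and 12.5% of all probes. The count that fell was 34 on the scale of the other low-gain probes, 7 under quantile normalization and 0 in the authors' values. All but 2 members had a negative log2 difference in this step, with a median of -0.17. Leaving out BA 180 dpc replicate 1 or CH 110 dpc replicate 1 left 0 members that fell, leaving out BA 110 dpc replicate 2, CH 180 dpc replicate 2 or CH 180 dpc replicate 3 left 1, and the count was 5 without CH 110 dpc replicate 2 and 6 without CH 260 dpc replicate 1. From 180 to 210 dpc RPL3 fell and 0 members rose, beside 4.33% and 5.35%, and without BA 180 dpc replicate 2 it did not pass.

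From 210 to 260 dpc 44 members rose and RPL3 alone fell, beside 24.8% and 19.9% of all probes, on the 75th percentile scale. The members' median was 0.29 and that of the other low-gain probes was 0.38. Under quantile normalization 0 rose and 33 fell, in the authors' values 0 rose and 1 fell, and on the scale of the other low-gain probes 0 rose and 7 fell. The count of 44 was 18 without BA 260 dpc replicate 2, 28 without CH 260 dpc replicate 2 and 29 without CH 210 dpc replicate 1. RPL3 fell under each of these scalings.

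No member differed between the breeds by the limma test. On average over the stages 0 members were higher and 0 lower in BA, beside 0.194% and 0.164% of all probes. At an unadjusted p under 0.05, 1 member of 74 passed, RPSA, beside 12.5% of all probes. The median log2 difference, BA minus CH, was -0.07 over the members, with 67 of 74 negative, and -0.01 over all probes. With slides as a block the members' median was -0.00. The intervals of the 74 differences lay between -0.52 and 0.37, so larger differences of a single member lay outside them. For all 74 members the BA and CH arrays overlapped when stages were joined. The joined ranges also hold the changes between stages, and the share over all probes is not given. This overlap therefore does not show that the breeds were alike.

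RPSA was the member nearest to a breed difference, at -0.33 (95% interval -0.52 to -0.13, adjusted p = 0.134). At 110 dpc it was at 6.83, 6.51 and 6.34 in BA and at 7.15 and 6.77 in CH. At 180 dpc it was at 5.86 and 6.15 in BA and at 6.51, 6.77 and 6.54 in CH. At 210 dpc it was at 6.54, 6.45 and 6.55 in BA and at 6.18, 6.70 and 6.41 in CH. At 260 dpc it was at 6.26 and 6.23 in BA and at 6.30, 6.86 and 6.71 in CH. BA lay below CH without overlap at 180 and 260 dpc, and the breeds overlapped at the other stages. At those 2 stages there were only 2 BA and 3 CH arrays, and the share over all probes is not given. The BA foetuses there were all female, whereas the CH groups held both sexes. RPSA was also picked as the most negative of the members. RPL15, RPLP2 and RPL38 followed at -0.22, -0.17 and -0.14. The highest were RPS12 at 0.11, RPLP1 at 0.04, RPL13 at 0.04 (adjusted p = 0.905) and RPS10 at 0.02, none of which passed.

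Single stages gave no called member either. At 110 dpc 0 members were higher or lower in BA, beside 0.228% and 0.0447% of all probes, and at 180 dpc 0, beside 0% and 0.00993%. At 210 and 260 dpc and for the breed difference in the change from 110 to 260 dpc, 0 members and 0% of all probes passed in either direction. At an unadjusted p under 0.05 there were 2, 9, 2 and 0 members of 74 at the 4 stages, beside 13.8%, 6.17%, 5.24% and 5.34% of all probes. The median member difference changed sign between stages, from -0.05 at 110 dpc and -0.15 at 180 dpc to 0.04 at 210 dpc and -0.12 at 260 dpc.

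RPS12, a protein of the small subunit's beak, varied most among foetuses of a group, with a pooled SD of 0.31 within groups where the median member had 0.17. In BA it was at 10.10, 10.05 and 10.11 at 110 dpc, at 9.05 and 9.15 at 180 dpc, at 9.99, 9.99 and 10.12 at 210 dpc and at 10.07 and 10.16 at 260 dpc. In CH it was at 10.01 and 8.96, then at 9.93, 9.99 and 9.31, then at 9.80, 9.29 and 9.19, and at 9.95, 10.50 and 10.31 at 260 dpc. Low values thus stood beside high ones within 3 of the CH groups. The other probe of RPS12 had a pooled SD of 0.28. RPS24 was likewise at 9.14 and 8.35 in the CH arrays at 110 dpc, the lower in the same foetus as that of RPS12. The array of that foetus, CH 110 dpc replicate 2, held 81 of the 258 outlier spots of all arrays. The part of array quality in these low values was not tested. The RPS12 breed differences of 0.60, -0.65, 0.60 and -0.14 at the 4 stages did not pass, nor did the change of 1.25 in the difference from 180 to 210 dpc (adjusted p = 0.797).

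**Figure D5:**
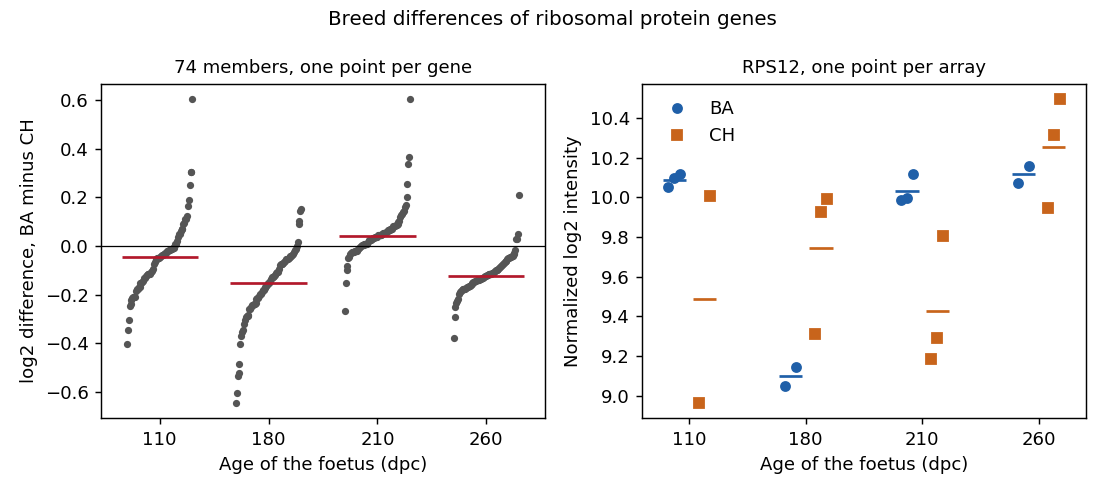
Left, the log2 difference BA minus CH of each of the 74 members at each age in dpc, with red lines at the medians; right, the normalized log2 intensity of RPS12 per array, with circles for BA, squares for CH and short lines for group means. The medians lay between -0.15 and 0.04, no member passed the test at any age, and RPS12 held both low and high arrays within CH groups at 110, 180 and 210 dpc.

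The other genes of the pathway were taken from lists. Some single genes of the list of paralogues and fusion genes follow, picked in part for the size of their change. From 110 to 260 dpc 33.3% of all probes rose and 30.8% fell, so these changes do not set the list apart. RPS27L, a paralogue of RPS27 known as a p53 target, was at 5.48, 5.56, 5.57, 5.66 and 5.68 at 110 dpc and at 6.81, 6.90, 6.93, 7.05 and 7.14 at 260 dpc. It rose by 1.37 (SE 0.08), a 2.58-fold difference, and in all 35 alternatives. RPL26L1, a paralogue of RPL26, fell by 0.97 (SE 0.10), also in all 35. RPL7L1 fell by 0.28. FAU, which encodes RPS30 as a fusion protein, was at -0.15 (adjusted p = 0.462).

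Of 37 tested ribosome biogenesis genes, 16 fell and 6 rose, beside 30.8% and 33.3% of all probes, with a median of -0.17. Over the alternatives 6 to 30 fell and 0 to 9 rose, and the median ran from -0.70 to -0.07. NPM1, a nucleolar chaperone of ribosome assembly, fell by 0.67 (SE 0.12), and in all 35. NCL, the nucleolar protein nucleolin, fell by 0.42, and FBL, the methylase of box C/D snoRNPs, by 0.23 (adjusted p = 0.0389). The largest falls of the list were those of DDX10 at -0.97 and GAR1 at -0.92. RRN3, which recruits RNA polymerase I, and IMP3 rose by 0.65 and 0.63 on the 75th percentile scale and stayed positive in all alternatives.

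Of 33 tested translation factors, 19 rose and 3 fell on the 75th percentile scale, beside 33.3% and 30.8% of all probes. The median was 0.29 there, while under other scalings it was as low as -0.24 and as many as 17 factors fell. EIF2S2, a subunit of eIF2, rose by 1.10 and EIF3J by 0.96. EIF4A1, an RNA helicase, fell by 1.18, and NACA by 0.43. These 4 held their calls in all 35 alternatives. TPT1 rose by 0.69, and EEF1A1 and EEF2 did not pass (-0.06, adjusted p = 0.546, and 0.02, adjusted p = 0.899).

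EEF1A1, the general elongation factor, was at 10.56 to 10.84 at 110 dpc and at 10.41 to 10.68 at 260 dpc. EEF1A2, its muscle counterpart, was not well above background on 4 of the 5 arrays at 110 dpc. Its group means there were below 0, at -4.05 in BA and -4.54 in CH, so EEF1A2 did not pass the filter on dim probes. It was well above background on all arrays of the later stages, at 0.24 to 2.66 at 180 dpc, 4.08 to 4.83 at 210 dpc and 5.65 to 6.42 at 260 dpc. No arrays of neighbouring stages overlapped there. In CH, where neither array at 110 dpc was well above background, EEF1A2 was at least 436-fold higher at 260 dpc. Without the filter its limma adjusted p was 6.33e-12.

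Of 7 tested growth control genes, 1 rose and 0 fell, beside 33.3% and 30.8% of all probes, and the median was -0.07. The 1 that rose, by 0.76, was RHEB, the activator of mTOR complex 1. Over the alternatives 0 to 4 rose and 0 to 6 fell, with medians from -0.61 to 0.07. MYC, a transcription factor that drives ribosome production, was at -0.13 (adjusted p = 0.448). No gene of these last 3 lists, of ribosome biogenesis, translation factors and growth control, differed between the breeds on average over the stages.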

How the data were processed

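Scanner intensities, as the authors deposited them, came from Agilent Feature Extraction 10.7, which detrended them and replaced bright spots by the signal of a low-gain scan scaled up by 9.41 to 9.45. The authors' deposited value table holds the log2 of these values, unscaled. Spots of a probe were averaged on the log2 scale, without 258 outlier spots, and each array was reduced by its 75th percentile (525 to 1174 intensity units), plus 2.69. Between 29027 and 34507 of 43653 probes per array were well above background, and 0 values were saturated. A probe was tested when its group mean was above 0 in 7 of 8 groups, which left 20132 probes. Probes were named through their accessions and assembly ARS-UCD2.0.

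The 8 groups of breed and stage entered 1 model in limma 3.58.1 (R 4.3.3, with version 1.17.8 of data.table and 2.0.0 of jsonlite), with 13 residual and 3.79 prior degrees of freedom, and called at a Benjamini-Hochberg adjusted p under 0.05, two-sided. The named members were the 6 lowest and 6 highest in the stage change, the 4 lowest and 4 highest in the breed difference, and 10 set names. The members and lists were chosen with earlier results of these data known. On simulated data, with 200 of 20132 probes shifted, 184 (92%) were recovered for 260 against 110 dpc, with 6 false calls, and 191 (95.5%) for the breeds, with 10. These rates hold for the simulated shifts only and do not give the power for differences as small as those of the members. Array number limits precision. There were 6 slides and 3 scan days. The 35 alternatives were 21 with 1 array left out, 11 other planned settings and 3 chosen after seeing the data: scaling on other low-gain probes, centring on the members' median, and scan day as a block. Labels give 1 foetus per array. One gene of the list of paralogues and fusion genes is not reported here.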

Additional observations from a re-analysis of the deposited data

How the results depend on the processing

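The fall of RPL3 passed in all 35 alternatives. For named members, 958 of 1085 values kept sign and side of the threshold, 42 lost and 27 gained significance and 58 changed sign; the cause was not tested. All breed counts stayed at 0. With the replicate block, 28 members rose and 5 fell from 110 to 260 dpc, and no count moved by over 1.5 times. Same-numbered arrays of different groups had a median correlation of 0.0090 over 66 pairs, beside -0.0091 over 126 pairs with other numbers. The highest values were 0.50 and 0.33. Pairing by number was not seen in the medians, and single pairs were not tested. Counts are given for 260 minus 110 dpc, 180 minus 110, 210 minus 180 and 260 minus 210 dpc.

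Quantile normalization gave 0 higher and 58 lower (median -0.30), then 7 lower, 3 lower, and 0 higher and 33 lower. RPL35 was at -0.036, RPS24 at -0.089, RPL10 at -0.044, RPL37A at -0.055, RPL38 at -0.40, RPS12 at -0.071, RPS10 at -0.32, RPLP0 at -0.13, RPS6 at -0.24, RPL5 at -0.27, RPL11 at -0.29, RPS27A at -0.49 and RPS4X at -0.20. The authors' table gave 0 higher and 10 lower (median -0.19), then 0 lower in both middle steps and 0 higher in the last. RPL38 was at -0.28, RPS10 at -0.19, RPLP0 at -0.0028, RPS6 at -0.17, RPL5 at -0.21, RPL11 at -0.22, RPS27A at -0.34 and RPS4X at -0.14. Scaling on other low-gain probes gave 0 higher and 57 lower (median -0.34), 34 lower in the first step, and 0 higher and 7 lower in the last. RPS24 was at -0.068, RPL10 at -0.069, RPL37A at -0.10, RPL38 at -0.43, RPS12 at -0.14, RPS10 at -0.33, RPLP0 at -0.15, RPS6 at -0.32, RPL5 at -0.35, RPL11 at -0.37, RPS27A at -0.49 and RPS4X at -0.28.

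Median scaling gave 38 higher and 2 lower, then 1 lower, with breed differences of RPLP1 at -0.0038, RPL13 at -0.0043 and RPS10 at -0.018. Centring on the members' median gave 5 higher and 12 lower (median -0.0076), then 0 lower, and in the last step 2 higher and 7 lower; RPL38 was at -0.097, RPS10 at -0.0028, RPL5 at -0.021, RPL11 at -0.038 and RPS27A at -0.16. Slides as a block gave 1 lower, 1 lower and 0 lower, and RPLP2 at 0.059. The mean of all probes gave 3 lower, and 3 higher from 180 to 210 dpc, with RPS26 at 0.083, RPL13 at 0.27, and breed differences of RPL13 at -0.013 and RPS10 at -0.028. No filter gave 1 lower from 110 to 180 dpc and 27 higher from 210 to 260 dpc, where scan days as a block gave 28. With normexp RPS27A was at -0.022, and with sex in the model the breed difference of RPS10 was -0.0025.

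Leaving out 1 array at a time gave 15 to 45 higher and 3 to 6 lower, 0 to 6 lower, 0 to 1 lower, and 18 to 62 higher. RPS27A ranged from -0.0068 to 0.15, and the breed differences of RPS12 from -0.024 to 0.24, RPLP1 from -0.020 to 0.092, RPL13 from -0.041 to 0.11 and RPS10 from -0.040 to 0.083. Signal over background limited no member.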
